A study of Homo sapiens with 4 samples.

Results

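The replication-dependent histone genes are the 70 protein-coding genes, among 20033 in GENCODE release 44, whose name starts with H2AC, H2BC, H3C or H4C followed by a digit or is one of H1-1 to H1-6. The rule goes by name and uses no measured value, although it was set with earlier results of these data known. They comprised 15 H4, 13 H3, 17 H2A, 19 H2B and 6 H1 genes. Of these, 55 were on chromosome 6, 13 on chromosome 1, and 1 each on chromosome 12 (H4C16) and chromosome 21 (H2BC12L). The study mapped RNA polymerase II (Pol II) by chromatin immunoprecipitation and sequencing in SK-OV-3, an established human ovarian cancer cell line in which lentiviral hairpins targeted either RRN3 (shRRN3) or, as the control, bacterial LacZ (shLacZ). RRN3 is an initiation factor of RNA polymerase I, and the experiment asked how its loss affects Pol II along genes. The series lists 4 samples, namely 1 Pol II library and 1 input library for each hairpin. Each Pol II library was analysed as its deposited list of peaks, whereas the 2 inputs were not analysed here. Each hairpin had 1 Pol II library among the samples, so no difference below could be set against a replicate spread and no p-value was computed. The peak lists measure no RNA, so the knockdown of RRN3 itself was not checked here, and the labels do not give which RRN3 hairpin was used.

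Histones are the proteins around which DNA is wrapped. Copies of H2A, H2B, H3 and H4 form the core of the nucleosome, and H1 binds the linker DNA between nucleosomes. Replication-dependent histone genes are transcribed by Pol II mainly in S phase, when new chromatin has to be packed. They are short, mostly without introns, and their mRNAs normally end in a conserved stem-loop in place of a poly(A) tail, which is bound by the stem-loop binding protein SLBP and cut a few bases further on with the help of the U7 snRNP.

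That stem-loop was used to check the identity of the genes. A stem of 6 base pairs around a loop of 4 bases was searched for in the GRCh38 genome within 100 bp after the stop codon of each gene. It was found at 69 of the 70 genes, 25 to 70 bp after the stop codon with a median of 38 bp, and it was not found at H2BC12L. Only 10 distinct sequences occurred. The 4 commonest are shown because this element served as the check and because peaks described below are placed relative to it. They are written 5′ to 3′ as DNA on the gene's strand, with the loop in capitals. The first was carried by 40 genes of the H1, H2A, H2B and H3 classes, the second by 10 genes, all of class H4, the third by 9 genes of the H1, H2A, H2B and H3 classes, and the fourth by H4C9, H4C12, H4C14 and H4C15.
most frequent stem-loop: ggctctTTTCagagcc
H4 stem-loop: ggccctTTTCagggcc
stem-loop ending its loop in A: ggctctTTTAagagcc
second H4 stem-loop: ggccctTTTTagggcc

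A gene was counted as having a peak when a peak overlapped the annotated gene or the 1 kb around it by at least 1 bp. By this rule 37 of the 70 histone genes had a peak in shLacZ, which was 52.9% (95% exact interval 40.6% to 64.9%), against 12.9% of all protein-coding genes. In shRRN3 it was 53 of the 70, or 75.7% (64.0% to 85.2%), against 35.8% of all protein-coding genes. All 37 genes with a shLacZ peak also had a shRRN3 peak, while 11.5% of all protein-coding genes had one in both lists. A further 16 histone genes, or 22.9% (13.7% to 34.4%), had a peak in the shRRN3 list alone, a share near the 24.3% of all protein-coding genes. No histone gene had a peak in the shLacZ list alone, which allows a share of up to 5.13%, against 1.38% of all protein-coding genes. The other 17 histone genes had no peak in either list. The intervals cover counting error only and treat genes as independent, although neighbouring histone genes shared peaks.

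The 2 lists differ greatly in length, with 3920 peaks in shLacZ and 14322 in shRRN3 on chromosomes 1 to 22, X and Y. The depth behind them is unknown from the lists themselves, which hold no read counts. The histone genes took 42 peaks of the first list and 67 of the second. That ratio was 1.60 (95% interval 1.07 to 2.41), whereas the ratio over the whole lists was 3.65. With lists of equal length, made by keeping the top 3920 peaks of shRRN3 by score (the reduced shRRN3 list), 41 histone genes had a shRRN3 peak, against 15.2% of all protein-coding genes. All 37 genes with peaks in both lists remained, and 12 of the 16 genes with a shRRN3 peak alone lost it. The 4 that kept it were H3C8, H4C8, H2AC14 and H2BC14. Short genes were also compared with each other, since the median canonical transcript span was 487 bp for the histone genes and 22913 bp for all protein-coding genes. Among the 1390 protein-coding genes whose canonical transcript spanned at most 2224 bp, the longest span of a histone gene, 6.47% had a peak in shLacZ and 14.5% in shRRN3 with windows set on that transcript, and 8.27% had one in shRRN3 alone. In such windows 36 histone genes had a shLacZ peak, 51 a shRRN3 peak and 15 a shRRN3 peak alone. The histone genes are themselves among the 1390, so they count in, and raise, these shares of short genes. Shares of short genes without them were not computed for these windows. The count in shRRN3 alone was thus near the share of all protein-coding genes and above that of short genes.

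**Figure D1:**
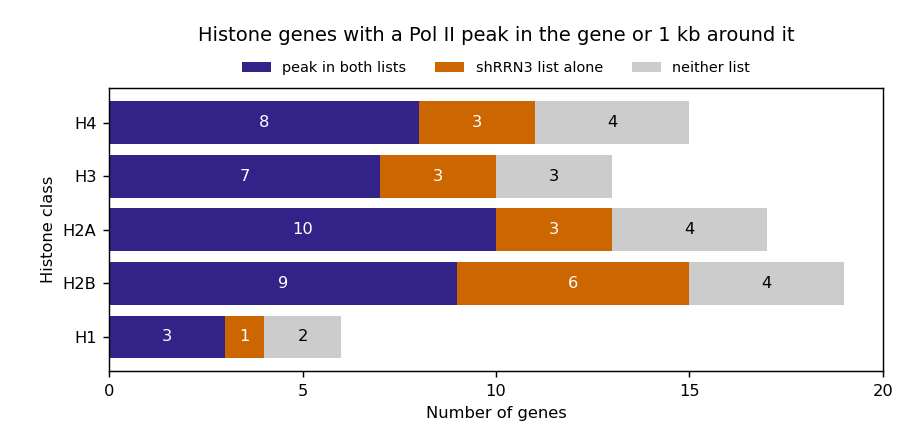
Number of histone genes (x axis) in each histone class (y axis) with a Pol II peak in both lists, in the shRRN3 list alone or in neither. Each class has genes of all 3 kinds, and the share with a peak in both was lowest in H2B (9 of 19) and highest in H2A (10 of 17).

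Each class held genes of all 3 kinds. H4, the core histone that pairs with H3, had peaks in both lists at 8 of 15 genes, in shRRN3 alone at 3 (H4C4, H4C8 and H4C9) and in neither at 4 (H4C6, H4C7, H4C14 and H4C15). For H3 the counts were 7, 3 (H3C7, H3C8 and H3C13) and 3 (H3C6, H3C14 and H3C15). For H2A they were 10, 3 (H2AC7, H2AC14 and H2AC15) and 4 (H2AC1, H2AC18, H2AC19 and H2AC25). For H2B, the partner of H2A in the core dimer, they were 9, 6 (H2BC6, H2BC7, H2BC9, H2BC14, H2BC15 and H2BC18) and 4 (H2BC1, H2BC10, H2BC12L and H2BC26). Among the linker histones H1-2, H1-4 and H1-5 had peaks in both lists, H1-3 in shRRN3 alone, and H1-1 and the testis-type H1-6 in neither. The share with a shLacZ peak ran from 47.4% in H2B to 58.8% in H2A, and the share with a shRRN3 peak from 66.7% in H1 to 78.9% in H2B.

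Some calls rested on a neighbour. H3C12 counted as having peaks in both lists, and H2BC6 as having shRRN3 peaks, through long alternative transcripts, and neither had a peak within 1 kb of its canonical transcript. The peak that placed H3C7 in the shRRN3 group (chr6:26251451-26251848, 398 bp) crossed the start of its neighbour H2BC9, and the peak that placed H3C13 there (chr1:149812181-149812486, 306 bp) crossed the start of H2BC18. Other such calls included H1-5 and H4C13, counted in both lists. The peaks of H1-5 lay over or past the end of H2AC16, and those of H4C13 over the start of H3C11. H2BC14 and H2BC7, counted in shRRN3 alone, had no covered coding base, and their peaks lay nearest to H2AC14 and H2AC7. Peaks shared by at least 2 histone genes made up 23 of the 42 in shLacZ and 35 of the 67 in shRRN3. In each list 1 of these peaks lay nearer to the start of another protein-coding gene than to that of a histone gene. Both, on chromosome 1, lay nearer to the start of BOLA1, and without them 36 histone genes had a shLacZ peak and 53 a shRRN3 peak.

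The genes were next grouped by position. The histone genes fell into blocks separated by at least 500 kb. In the largest, at 25723397 to 26285638 on chromosome 6, 17 of 34 genes had peaks in both lists, 9 in shRRN3 alone and 8 in neither. In the block at 27125897 to 27147562 on the same chromosome 4 of 5 had peaks in both lists, and in the block at 27807479 to 27893891 it was 12 of 16. In these latter blocks each of the other 5 genes had a peak in shRRN3 alone. On chromosome 1, 3 of the 11 genes at 149782689 to 149887965 had peaks in both lists (H2BC21, H2AC20 and H2AC21), 2 had a peak in shRRN3 alone and 6 had none, and the pair H2AC25 and H2BC26 at 228434777 to 228463104 had none. Over the whole of each chromosome, 47 of 55 genes on chromosome 6 and 5 of 13 on chromosome 1 had a shRRN3 peak.

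**Figure D2:**
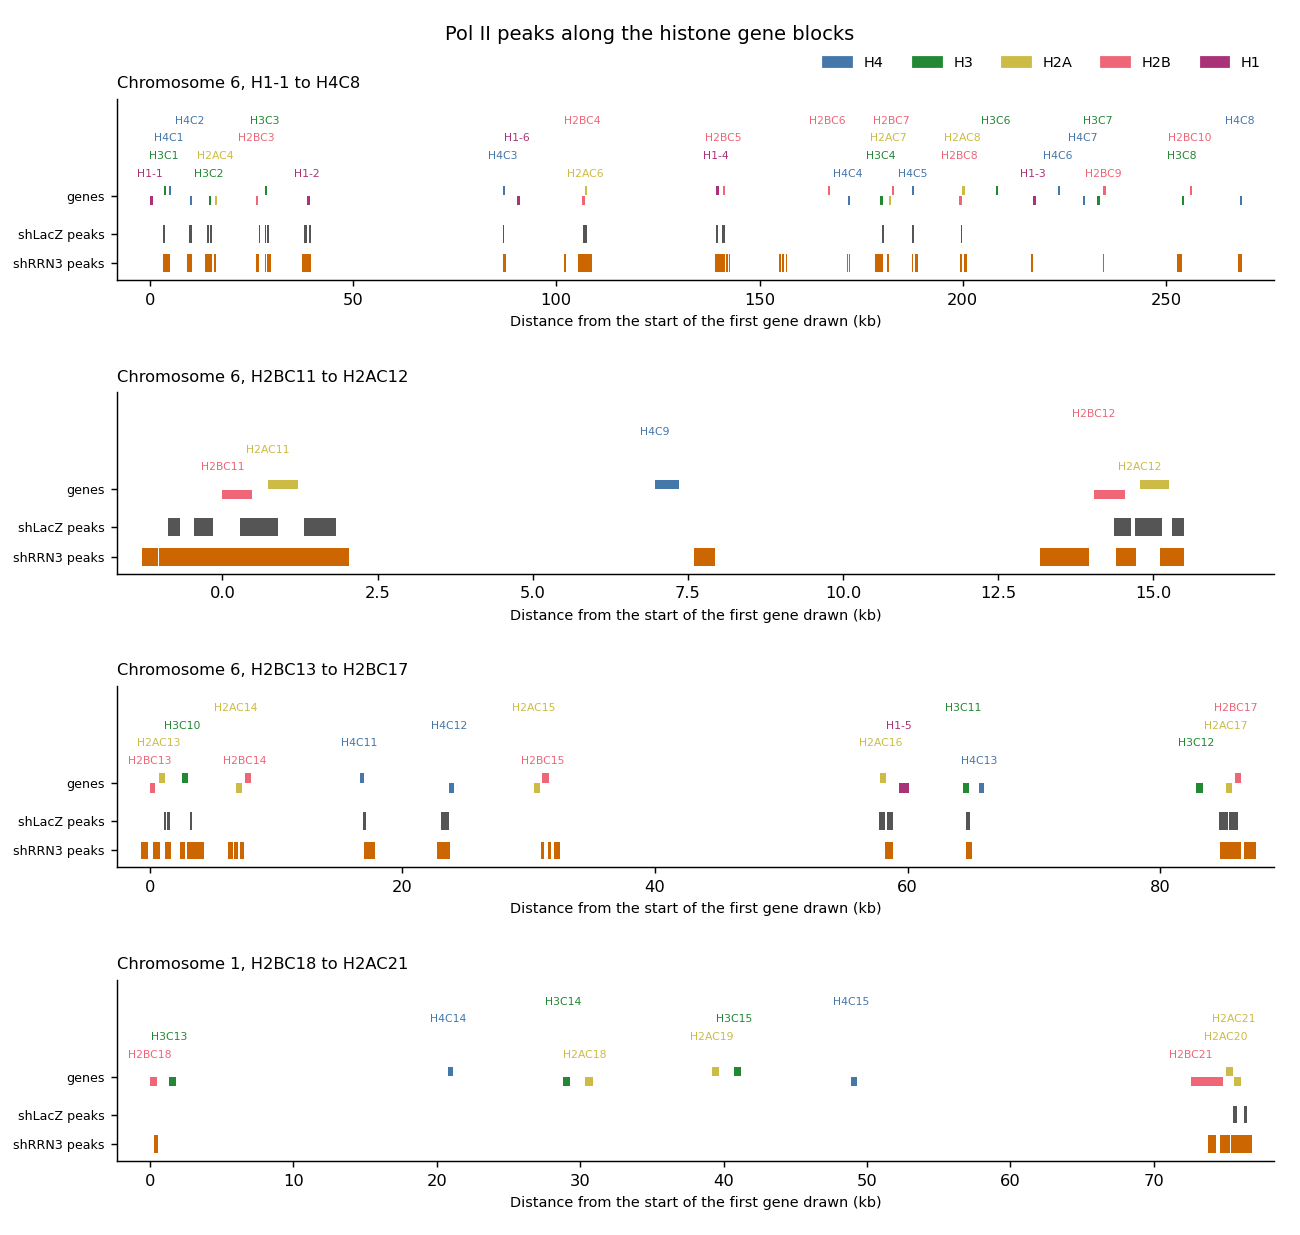
Pol II peaks in or within 1 kb of histone genes along 4 blocks, drawn as kb from the start of the first gene shown (x axis), with genes coloured by class and offset by strand, upper for plus. In the upper 3 blocks, on chromosome 6, grey shLacZ peaks lie over or beside orange shRRN3 peaks at many genes, and in the lowest block, on chromosome 1, 6 genes in the middle carry no peak.

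Sequence that occurs more than once in the genome moved with this difference. For each gene, 50-base words of the canonical transcript and 1 kb around it were looked up in GRCh38, and the share of words present once was taken. The median over the 70 genes was 97.4%. It was under 80% for 9 genes, of which 7 had no peak in either list, 2 had a shRRN3 peak alone and none had peaks in both. On chromosome 1 it was 0% for H4C14, H3C14, H3C15 and H4C15, 11.4% for H2AC18 and 9.47% for H2AC19, and these are the 6 genes without peaks in that block. For H2BC12L on chromosome 21 it was also 0%. It was 37.1% for H2BC18 and 33.3% for H3C13, which shared 1 shRRN3 peak of low score (59.46). A read within such a word has more than 1 match, the handling of reads with several matches is not given in the sources used here, and the part of this in the missing peaks was not tested. The 10 other genes without a peak (H2AC1, H2BC1, H1-1, H1-6, H3C6, H4C6, H4C7, H2BC10, H2AC25 and H2BC26) had windows of which 91.2% to 100% was unique.

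**Figure D3:**
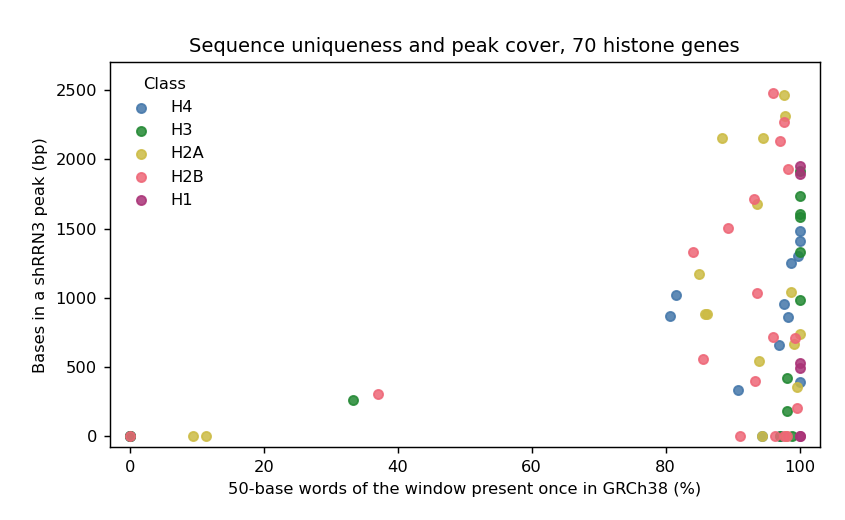
Bases in a shRRN3 peak within the canonical transcript and 1 kb around it (y axis, bp) against the share of 50-base words of that window present once in GRCh38 (x axis, %), 1 point for each of the 70 histone genes. The 7 genes under 20% unique have no covered base, and genes at 100% run from 0 to 1951 bp.

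Similarity within the coding sequences was high as well. Between genes with coding sequences of the same length, the median identity of bases was 83.8% for H4, 85.3% for H3, 85.5% for H2A and 90.2% for H2B. Among genes with peaks in both lists, H4C11 and H4C12 had the lowest uniqueness there. Only 9.39% and 3.88% of the words in their coding sequences were unique, against 92.6% and 93.9% of those in their flanks. Their shRRN3 peaks covered 0% and 18.1% of the coding sequence, but 82.9% and 91.8% of the 1 kb downstream. Where a peak starts or stops inside these coding sequences therefore cannot be told apart from where reads could be placed.

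The peaks of highest score were examined next. The score is the authors' measure of each peak, taken here as 10 times the −log10 of its p-value, and it depends on depth, so it was ranked within a list only. In shLacZ the median score was 75.4 over the 42 histone peaks and 65.6 over the list, and 5 histone peaks (11.9%) were in the top 10% of the list. In shRRN3 the medians were 129.1 and 74.7, and 29 of the 67 histone peaks (43.3%) were in the top 10%. The median percentile of the histone peaks was 62.7 within the shLacZ list and 82.9 within the shRRN3 list. These ranks are not compared between the lists, which differ in length. They were also shared more often than other peaks. Of the 42 shLacZ histone peaks 40 (95.2%, interval 83.8% to 99.4%) were overlapped by a shRRN3 peak, against 66.2% of the shLacZ list, and 29 of the 67 shRRN3 histone peaks (43.3%, 31.2% to 56.0%) were overlapped by a shLacZ peak, against 16.9% of the shRRN3 list.

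The highest shLacZ score, 220.68, belonged to a peak of 506 bp (chr6:26156217-26156722) over the start of H1-4, a widely expressed linker histone. Next came a peak over the end of H2AC17 (chr6:27892153-27892857, 705 bp, score 211.43), which was also the top shLacZ peak of the H2A and H2B classes because H2BC17 lies within 1 kb of it. A peak past the end of H2BC11 (chr6:27131860-27132157) scored 209.78, one over the end of H3C2 (chr6:26031187-26031698) scored 199.19 and was the top peak at an H3 gene by its own canonical transcript, and one past the end of H2AC11 (chr6:27133632-27134146) scored 189.26. Thus 1 of the 5 highest shLacZ peaks was over a start and the others were over or past an end. The top peak at an H4 gene (chr6:27830817-27831198, score 127.69) lay over the end of H4C12.

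In shRRN3 the highest score, 1022.12 at rank 32 of the list, belonged to a peak of 1717 bp (chr6:26156808-26158524) that began inside H1-4, ran past its end and reached into H2BC5. The next was a single peak of 3063 bp (chr6:27131290-27134352, score 949.99, rank 35) that took in the whole of H2BC11 and H2AC11. In shLacZ the same stretch held 4 separate peaks, of 186, 298, 614 and 515 bp. A peak of 2142 bp over the whole of H1-2 (chr6:26054492-26056633) scored 838.24, where shLacZ had 3 peaks of 286, 392 and 267 bp. A peak over the whole of H2BC4 and the start of its partner H2AC6 (chr6:26122940-26124398, 1459 bp) scored 710.87. The fifth, of 1836 bp (chr6:26020223-26022058, score 527.94), joined H3C1 to H4C1 and was the top peak of both the H3 and H4 classes. Peaks of at least 1500 bp numbered 4 of 67 at histone genes in shRRN3, or 5.97%, against 2.42% of that list. In shLacZ none of 42 was that wide, against 1.05% of that list, and the widest was 705 bp.

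Covered bases were compared over the canonical transcript and 1 kb on either side. Of the 51 histone genes with a peak there in either list, 49 (96.1%) had more covered bases in shRRN3, against 93.3% of all protein-coding genes with a peak, so this count by itself was close to that of the genome. With the reduced shRRN3 list it was 37 of 40 histone genes, or 92.5%, against 69.5% of all protein-coding genes. The median covered length of the 51 genes was 317 bp in shLacZ (0 to 1319 bp) and 1035 bp in shRRN3 (185 to 2480 bp). H2BC11 went from 1262 to 2480 bp, H2AC6 from 917 to 2462 bp, H1-2 from 945 to 1894 bp, H4C1 from 138 to 1410 bp and H3C1 from 469 to 1736 bp. The exceptions were H2AC12 (907 bp in shLacZ and 880 bp in shRRN3) and H2AC16 (863 and 664 bp). Over all windows together the covered bases were 14710 and 43409 bp, 10.4% and 30.7% of 141602 bp. Their ratio of 2.95 was below the 4.80 of the whole lists.

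**Figure D4:**
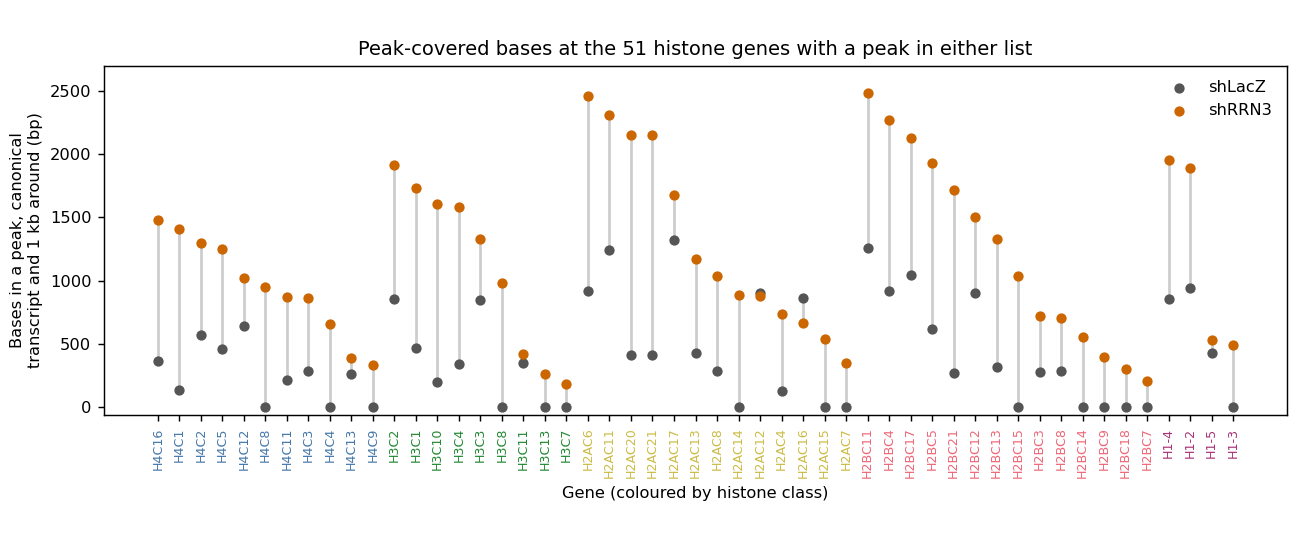
Bases in a peak within the canonical transcript and 1 kb around it (y axis, bp) for each of the 51 histone genes with a peak there (x axis), grey for shLacZ and orange for shRRN3, with a line joining the values of a gene. The orange point is higher at 49 genes, and the grey point is higher at H2AC12 and H2AC16.

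The study asked about the starts and ends of genes, so the place of the peaks along the histone genes was examined. The first base of the canonical transcript lay in a peak at 22 of the 70 genes in shLacZ, against 6.62% of all protein-coding genes, and at 34 in shRRN3, against 22.1%. The last base lay in a peak at 11 genes in shLacZ, against 0.3% of all protein-coding genes, and at 30 in shRRN3, against 1.47%. Both bases were in a peak at 6 genes in shLacZ and 23 in shRRN3. Genes with the start alone in a peak numbered 16 in shLacZ and 11 in shRRN3. In shLacZ, then, starts were in peaks more often than ends, and in shRRN3 the counts were nearly equal.

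Beyond the end the lists were further apart. The base 500 bp past the end lay in a peak at 7 genes in shLacZ (10%, interval 4.12% to 19.5%), against 0.414% of all protein-coding genes. In shRRN3 it did so at 30 genes (42.9%, 31.1% to 55.3%), against 1.9%. All 7 were among the 30, so 23 genes had this base covered in shRRN3 alone and none in shLacZ alone. With the reduced shRRN3 list it was 26 genes, against 1.08% of all protein-coding genes, while the first base lay in a peak at 25, against 9.62%. With equal numbers of peaks, the start was thus covered at 22 and 25 genes in shLacZ and shRRN3, and the base past the end at 7 and 26. Over all protein-coding genes the start went from 6.62% to 9.62%, and the base past the end from 0.414% to 1.08%. Equal numbers of peaks do not equalise covered bases. With the reduced shRRN3 list, 69.5% of all protein-coding genes with a peak still had more covered bases in shRRN3. Of the 58 genes for which that base was over 1 kb from the start of any other gene, it lay in a peak at 6 (10.3%) in shLacZ and 25 (43.1%) in shRRN3. A histone gene is about as long as a peak is wide. Among the 1390 short genes the base 500 bp past the end lay in a peak at 0.863% in shLacZ and 4.10% in shRRN3. The histone genes are among these 1390, so the 7 and 30 genes above count in these shares. Shares of all short genes without them were not computed for this base. A narrower share was computed for genes with the base 100 bp before the start in a peak. Among such short genes outside the histone set, 38 in shLacZ and 113 in shRRN3, the base past the end was also in a peak at 13.2% and 17.7%. Among such histone genes it was so at 3 of 14 and 23 of 33. Whether gene length moves with this measure was not tested.

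**Figure D5:**
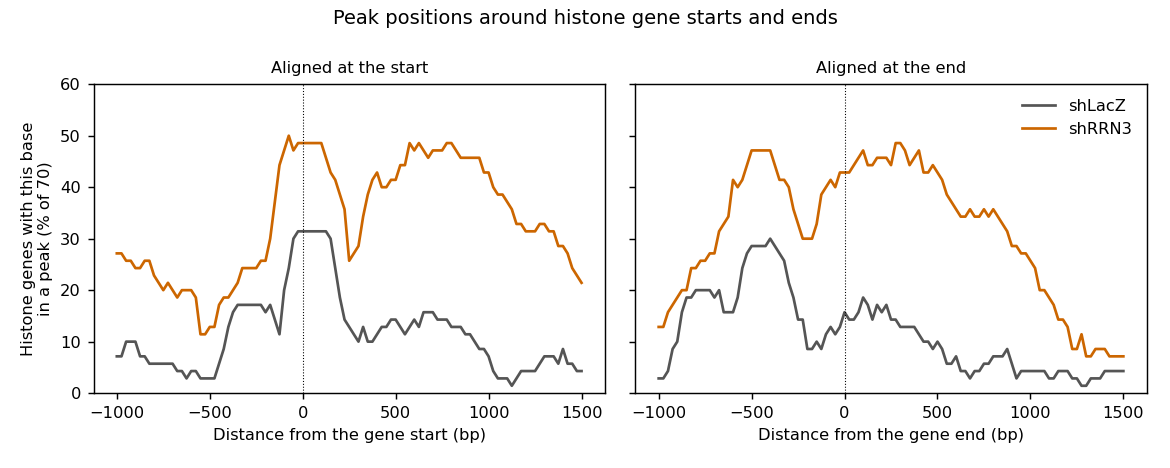
Share of the 70 histone genes with a given base in a peak (y axis, %) against distance from the start (left, bp) and from the end (right, bp) of the canonical transcript, grey for shLacZ and orange for shRRN3. The grey line is highest from 25 bp before to 125 bp after the start, at 31.4%, and the orange line has a second crest past the end, at 48.6%.

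By distance from the start, the share of genes in a peak was highest from 25 bp upstream to 125 bp downstream in shLacZ, at a level 31.4%, and 75 bp upstream in shRRN3, at 50%. By distance from the end it was highest 275 to 300 bp past the end in shRRN3, at 48.6%, and 400 bp before the end in shLacZ, at 30.0%. Over the 51 genes with peaks, the mean covered share of the 1 kb upstream, the coding sequence and the 1 kb downstream was 15.2%, 25.8% and 13.4% in shLacZ and 34.8%, 53.2% and 54.2% in shRRN3. The downstream side was covered more than the upstream side at 15 genes and less at 21 in shLacZ, and more at 31 and less at 18 in shRRN3. These covered shares and side counts were not computed for other genes, so whether they are particular to histone genes was not tested.

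Where a peak lay over the end of a gene, its reach past the end was measured. It was 194 bp at the median of 11 genes in shLacZ (3 to 546 bp) and 557.5 bp at the median of 30 genes in shRRN3 (8 to 1409 bp). The 2 sets of genes differ, and some peaks ran into a neighbour. The 1409 bp of H1-4 belonged to a peak over the start of H2BC5, and the 1100 bp of H3C1 to one that took in H4C1. Peaks were also wider throughout the shRRN3 list, with a median of 432 bp against 306 bp in shLacZ. The reach was not measured for other genes or with the reduced shRRN3 list. H1-2 went from 381 bp in shLacZ to 1248 bp in shRRN3, H3C2 from 402 to 937 bp, H4C2 from 148 to 759 bp, H4C12 from 357 to 918 bp and H3C3 from 194 to 886 bp. H2AC17 was an exception, with 546 and 530 bp. The reach passed 500 bp at 1 gene in shLacZ and at 18 in shRRN3. The stem-loop shown above, which marks the place near which the histone mRNA is cut, lay in a peak at 10 of 69 genes in shLacZ (14.5%) and at 31 in shRRN3 (44.9%).

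By class, the base 500 bp past the end was in a peak at 2 of 6 H1 genes in shLacZ and 3 in shRRN3, at 3 and 8 of 17 H2A genes, at 0 and 7 of 19 H2B genes, at 1 and 6 of 13 H3 genes and at 1 and 6 of 15 H4 genes. In both lists the H1 genes included H1-5, whose base lay in a peak nearest to H2AC16. The same peak held this base of H2AC16, so it counts for both genes here and above. In each class more genes had this base covered in shRRN3 than in shLacZ.

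Of the genes with a peak in shRRN3 alone, the highest scores were again often past the end. H3C8, an H3 gene, had a peak of 1174 bp (chr6:26269729-26270902, score 207.19) that lay wholly downstream of the gene. The pair H2AC14 and H2BC14 had a top peak of 155.81 (chr6:27813692-27814051) past the end of H2AC14. H4C8 had a peak of 603 bp over its end (score 121.9) and one of 351 bp over its start (score 54.29). H2BC9, with H3C7 beside it, had a peak over its start (score 92.7), and the 92.25 assigned to H2BC6 was the peak on its long transcript. H4C4 had a peak over its start (78.31), H2BC15 one past its end (76.05), and H4C9 one past its end (chr6:27139915-27140248, score 69.12). Within the list these scores stood at percentiles of 43.5 for H4C9, 54.3 for H4C4, 51.8 for H2BC15 and 94.3 for H3C8. The remaining genes of this kind, H2BC18, H3C13, H1-3, H2AC15, H2AC7 and H2BC7, had top scores of 55.25 to 59.46, near the lower limit of the list.

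H2A and H2B genes often lie head to head and share the DNA between their starts. There were 12 such pairs, with 193 to 250 bp between the starts and a median of 237 bp. A peak touched this gap at 5 pairs in both lists, at 4 in shRRN3 alone (H2BC21 with H2AC20, H2BC13 with H2AC13, H2AC14 with H2BC14, and H2AC15 with H2BC15) and at 3 in neither (H2AC1 with H2BC1, H2AC7 with H2BC7, and H2AC25 with H2BC26). The whole gap was in a peak at 1 pair in shLacZ and at 4 in shRRN3. Over all protein-coding genes the first base lay in a peak at 6.62% in shLacZ and 22.1% in shRRN3. That is a measure of 1 base and not of a gap. Head-to-head pairs of other genes were not counted. The gaps of 3 pairs are shown because they represent the 3 kinds, all 5′ to 3′ on the plus strand of GRCh38, with TATAAA (the TATA box bound by TBP), CCAAT (bound by NF-Y) and ATTTGCAT (the octamer bound by OCT factors), on either strand, in capitals. The first, between H2BC11 and H2AC11 (chr6:27132796-27133042), lay wholly in a peak in both lists. The second, between H2BC13 and H2AC13 (chr6:27807930-27808172), lay wholly in a shRRN3 peak and in no shLacZ peak. The third, between H2AC1 and H2BC1 (chr6:25726563-25726776), had no peak, and these genes are known for expression in the testis.
H2BC11 to H2AC11: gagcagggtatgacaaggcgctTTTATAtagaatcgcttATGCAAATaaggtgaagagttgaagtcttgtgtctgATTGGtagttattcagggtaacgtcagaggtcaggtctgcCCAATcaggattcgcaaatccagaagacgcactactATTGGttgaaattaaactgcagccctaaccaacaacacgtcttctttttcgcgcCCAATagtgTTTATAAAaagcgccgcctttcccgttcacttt
H2BC13 to H2AC13: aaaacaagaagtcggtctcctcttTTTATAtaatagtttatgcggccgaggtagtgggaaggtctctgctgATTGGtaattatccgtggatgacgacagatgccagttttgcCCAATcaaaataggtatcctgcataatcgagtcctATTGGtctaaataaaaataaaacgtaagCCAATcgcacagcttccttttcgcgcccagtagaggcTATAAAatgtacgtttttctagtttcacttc
H2AC1 to H2BC1: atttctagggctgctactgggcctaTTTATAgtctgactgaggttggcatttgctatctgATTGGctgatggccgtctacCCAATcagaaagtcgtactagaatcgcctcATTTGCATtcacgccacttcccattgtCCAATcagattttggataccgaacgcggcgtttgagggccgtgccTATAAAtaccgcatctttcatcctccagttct

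The pair without a peak held all 3 motifs, as the first pair did, and the second pair lacked the octamer. Over all 12 gaps, TATAAA was found in 9, CCAAT in 12 and ATTTGCAT in 9.

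Promoters were searched for the same letters on both strands of the RefSeq promoter sequences, from 250 bp before to 50 bp after the start (GRCh38.p14), which were at hand for 64 of the 70 genes. H2AC12, H2BC12L, H3C11, H3C12, H4C1 and H4C3 were not among them. TATAAA was present in 42 (65.6%), against 11.5% of 35116 promoters, CCAAT in 54 (84.4%) against 34.6%, and ATTTGCAT in 26 (40.6%) against 1.77%. The classes differed in these letters. CCAAT was in all 11 H3, 16 H2A, 18 H2B and 6 H1 promoters searched but in 3 of 13 H4 promoters, and ATTTGCAT was in 14 of 18 H2B and 11 of 16 H2A promoters, many of which are shared, in 1 H3 promoter and in no H4 or H1 promoter. That H3 promoter, of H3C4, starts in RefSeq at the same base as H2AC7 and far from the canonical transcript. On the gene's own strand in the last 150 bp before the start, TATAAA occurred in 35 promoters, and in all of them it began 27 to 42 bp before the start. By peak status, TATAAA was in 26 of 32 promoters of genes with peaks in both lists, in 7 of 16 with a shRRN3 peak alone and in 9 of 16 with none. CCAAT was in 27, 14 and 13 promoters of the same groups, and ATTTGCAT in 16, 7 and 3. These matches are descriptions of letters in a window, and a missing match says nothing about the factor.

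The H4 promoters and that of H1-4 are shown because genes with and without a peak stand beside each other in these classes. Each is given as the 150 bases before the start on the gene's strand, with the same motifs in capitals. H4C2 (chr6:26027284-26027433, minus strand) and H4C12 (chr6:27831561-27831710, minus) belonged to genes with peaks in both lists. H4C7 (chr6:26246997-26247146, minus) and H4C6 (chr6:26240243-26240392, plus) belonged to genes with none. H1-4 (chr6:26156179-26156328, plus) was partly covered by the highest-scoring peak of shLacZ, which ran on over the start.
H4C2: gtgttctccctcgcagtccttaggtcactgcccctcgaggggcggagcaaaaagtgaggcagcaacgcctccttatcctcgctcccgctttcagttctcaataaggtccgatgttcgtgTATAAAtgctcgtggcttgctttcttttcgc
H4C12: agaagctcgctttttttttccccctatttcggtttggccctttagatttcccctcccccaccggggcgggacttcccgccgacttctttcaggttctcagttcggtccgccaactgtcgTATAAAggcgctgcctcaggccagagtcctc
H4C7: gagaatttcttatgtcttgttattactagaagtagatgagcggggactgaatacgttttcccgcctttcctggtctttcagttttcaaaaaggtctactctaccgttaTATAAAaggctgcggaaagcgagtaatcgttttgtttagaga
H4C6: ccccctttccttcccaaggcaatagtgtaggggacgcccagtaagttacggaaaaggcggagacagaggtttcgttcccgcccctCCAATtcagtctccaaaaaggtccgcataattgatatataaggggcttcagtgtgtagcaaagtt
H1-4: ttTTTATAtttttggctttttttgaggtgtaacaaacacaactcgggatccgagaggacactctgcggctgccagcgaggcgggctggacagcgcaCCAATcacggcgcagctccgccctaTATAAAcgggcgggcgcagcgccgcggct

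TATAAA was present before H4C7, which had no peak, as it was before H4C2 and H4C12. H4C6 carried CCAAT and no TATAAA.

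The histone genes outside the clusters, which are expressed through the cell cycle and mostly carry introns and a poly(A) tail, were set beside these. Of 11 such genes 6 had a shLacZ peak and 9 a shRRN3 peak, and all 6 had both, against 12.9% of all protein-coding genes in shLacZ, 35.8% in shRRN3 and 11.5% in both. H3-3B, a gene for the variant H3.3, had top scores of 263.78 in shLacZ and 939.41 in shRRN3, at percentiles of 96.5 and 99.7. These top peaks of H3-3B did not overlap each other. H2AX, whose product is phosphorylated at DNA breaks, had 260.68 and 290.64, at percentiles of 96.3 and 97.4. CENPA, the centromeric H3, had 128.06 and 183.7. H2AZ1 had 88.8 and 186.6, MACROH2A1 75.34 and 95.4, and H1-10 56.55 and 134.08. H2AZ2, H2AJ and H3-3A had a peak in shRRN3 alone, and MACROH2A2 and H3-5 had none.

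Genes for factors that act on histone genes, mRNAs and proteins formed a list of 28. Of these, 4 had a peak in both lists, 9 in shRRN3 alone and 15 in neither, or 13 of 28 in shRRN3, against 11.5%, 24.3% and 35.8% of all protein-coding genes in both lists, in shRRN3 alone and in shRRN3. The 4 were CPSF2, a subunit of the cleavage complex for mRNA 3′ ends (63.13 in shLacZ and 92.8 in shRRN3), and the chaperones or chaperone subunits RBBP4 (55.91 and 101.61), NASP (62.4 and 94.38) and HIRA (69.41 and 133.77). SLBP, the stem-loop binding protein, had a shRRN3 peak alone (102.35), as had LSM10 of the U7 snRNP (89.03), ZNF473, a U7-associated factor (98.07), POU2F1, an octamer-binding factor (113.86), CDK2, the S phase kinase (87), and CHAF1A of the CAF-1 chaperone (86.69). The others of this kind were CSTF2T, CCNE2 and ASF1A. The peaks of CDK2 and CSTF2T lay wholly outside the annotated genes and were counted through the 1 kb around them. The top RBBP4 peaks of the lists did not overlap each other. NPAT, the cyclin E-CDK2 substrate that activates histone transcription, had no peak, nor had CASP8AP2, HINFP or LSM11.

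The labelled cell type was checked in the same way. PAX8, a factor of the Müllerian lineage, had peaks in both lists (147.99 and 354.44), the keratin genes KRT7, KRT8 and KRT18 and the epithelial EPCAM had peaks in shRRN3 alone, and WT1, MUC16 and ERBB2, the last known to be amplified in this line, had none. KRT8 and KRT18 shared their top peak. Of these 8 markers 1 had a peak in both lists and 4 in shRRN3 alone, against 11.5% and 24.3% of all protein-coding genes. None of the 7 markers of blood, fibroblasts and liver had a peak in either list. The share of all protein-coding genes with a peak was 12.9% in shLacZ and 35.8% in shRRN3.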

How the data were processed

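Pol II was measured by ChIP-seq in shLacZ and shRRN3 SK-OV-3 cells, 1 library each. Sequencing used a BGISEQ-500 instrument per the methods. Peaks were called by the authors library by library, and the deposited lists give the coordinates and a score of each peak. The peak names point to MACS. The aligner, the version and threshold of the caller, the read length and the handling of reads with several matches are not given in the sources used here. The build was hg38 per the submitters' processing notes, and the sequence names were GRCh38 versions. The deposited score was taken as 10 times −log10 of the p-value, which is an assumption. The input libraries were not analysed here. The lists hold no read counts, so depth is unknown from them, and no other source of depth was used.

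Genes came from GENCODE 44 (20033 protein-coding genes). Peaks were assigned by an overlap of at least 1 bp with a gene and 1 kb on either side. Canonical transcripts gave starts, ends and covered bases. Shares carry 95% Clopper-Pearson intervals, and the ratio of peak numbers an exact conditional one, all for counting error only. Uniqueness was the share of 50-base words present once in chromosomes 1 to 22, X and Y. Values in full were given for the 5 highest-scoring histone peaks per list, the top peak per class, the 10 top genes with a shRRN3 peak alone, and pathway or variant histone genes with a shLacZ peak. Of the variant histone genes on the list, 1 is not reported here. Other examples were chosen after their values were seen. The members, lists and motifs were chosen with earlier results of these data known. The window code was tested on simulated peaks, where it recovered 100% of 4000 genes with a planted peak among 20033, and its counts of genes with a peak (2586 in shLacZ and 7171 in shRRN3) matched bedtools 2.31.1. Alternatives were other windows, a midpoint rule, a stricter score, a shortened shRRN3 list, unique windows, and the removal of peaks nearer to other genes. Versions were scipy 1.17.1, pandas 2.3.3, numpy 2.4.6, matplotlib 3.10.9 and Python 3.11.15.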

Additional observations from a re-analysis of the deposited data

How the results depend on the processing

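Of 81 values recomputed for 13 results, 73 kept to within 1.5 times the reported count, or moved by less than the counting interval for a share, and 8 did not. With the shRRN3 list shortened to its 3920 highest-scoring peaks (scores of at least 102.86), the histone genes with a peak in shRRN3 alone numbered 4 in place of 16, and the shRRN3 peaks at histone genes 39 in place of 67, since fewer peaks were kept. The other 6 were shares of all protein-coding genes. One alternative kept the 11721 genes whose annotated span was at most that of the longest histone gene, 37610 bp. This is a wider set than the 1390 genes chosen above by canonical transcript. In it the shares were 10.4% in shLacZ, 29.1% in shRRN3 and 9.47% in both lists. With peak midpoints within 1 kb of a start they were 7.56%, 23.7% and 6.41% of all protein-coding genes. Histone genes with a peak numbered 29 to 38 in shLacZ and 41 to 53 in shRRN3 over the alternatives, and none had a peak in shLacZ alone in any of them. With scores of at least 65.58, the shLacZ median, 45 histone genes had more covered bases in shRRN3. The canonical transcript windows, and the alternatives for covered bases and for the base past the end, were chosen after seeing the data. No paired analysis was possible because each hairpin had 1 library. With 1 library per hairpin and no depth in the lists, the hairpin, the library and the depth cannot be told apart.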
